A study of Mus musculus with 8 samples.

Results

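The genes described here, as measured in mouse ileum, are the secreted Wnt ligands, genes of ligand secretion and the Frizzled and Lrp receptors. Secreted proteins that raise or lower Wnt action are also included. Members were taken by array gene name: all Wnt, Fzd, Dkk, Sfrp and Rspo genes plus Wif1, Lrp5, Lrp6, Porcn and Wls. This gave 47 of the 35715 gene names on the array, with 55 of its 55681 probes. Each gene was read from its probe of highest mean log2 signal over the 8 arrays. The measured values thus chose the probe of a gene but not the gene itself. The set holds 19 Wnt ligands, 10 Frizzled receptors, 2 co-receptors, 2 genes of ligand secretion, 4 R-spondins and 10 genes of secreted inhibitor families.

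Ileum RNA came from female mice of an inducible TNK1 line, with 4 arrays for doxycycline and 4 for saline. TNK1 is a non-receptor tyrosine kinase, and the study turned it on in mice to see which transcripts of the ileum respond. The doxycycline mice were Rosa26rtTA/+ and carried Hprt Myc-Tnk1tg, received doxycycline by intraperitoneal injection (50 µg per g body weight, in 100 µl), and were analysed 24 h later. The saline mice have the same 2 alleles in the strain label and the design text, although their titles and source names say WT, and they received 100 µl of 0.9% NaCl. The labels thus conflict on whether the saline mice carry the transgene. A difference in genotype, if there was one, cannot be told apart from the treatment, and no group labelled as lacking the transgene received doxycycline. Rosa26, which drives the activator, is a broadly active locus, and the labels restrict induction to no cell type. Whether every array stands for an animal of its own is not stated, and the p-values therefore cover only the spread among these 8 samples.

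Wnt proteins are lipid-modified by Porcn, carried to the cell surface by Wls, and bind a Frizzled receptor together with Lrp5 or Lrp6, which stabilises beta-catenin and turns on genes through TCF/LEF factors. R-spondins bind Lgr receptors and spare Frizzled from removal by Rnf43 and Znrf3, whereas Dickkopf proteins block the Lrp co-receptors and Sfrp proteins and Wif1 bind the ligands themselves. In the small intestine this signal keeps the crypt stem cells dividing, with Wnt3 made by Paneth cells and further ligands and R-spondins made by the mesenchyme below the crypts.

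All levels below are log2 processed intensity minus the array's own 75th percentile, so 0 is the 75th percentile of the array's probes, and a level is never set against that of another gene's probe. Means are given ± SD (n = 4), and differences, doxycycline minus saline, with their SE. The labels were checked first: the 5′-side Tnk1 probe was 6.92-fold higher with doxycycline (95% interval 4.86 to 9.85, limma adjusted p = 4.17e-04), the 3′-side probe was not (log2 difference -0.45, adjusted p = 0.143), and Hprt, the locus of the transgene, was 64.6-fold higher. The tissue label was checked by 8 ileal epithelium markers, of which 7 were well above background on all 8 arrays and 0 passed the threshold by limma (1 at an unadjusted p under 0.05). All arrays lay on 1 slide, doxycycline in row 1 and saline in row 2, and an effect of the row cannot be told apart from one of the treatment. The doxycycline arrays had 56.1% to 58.3% of probe spots well above background and the saline arrays 41.3% to 44.7%. The lowest processed intensity was 2.01 to 2.37 on doxycycline arrays and 6.22 to 9.21 on saline arrays. The lowest signal that counted as well above background was -4.90 to -4.51 with doxycycline and -3.07 to -2.57 with saline. A dim probe thus needed more signal to count as detected with saline. These lowest signals are called detection limits below, although a probe above one can still fall short of being well above background. The mean level of 6 B cell markers was 0.95 to 2.25 on the doxycycline arrays, against 2.73 on saline 2 and -1.55 to -0.90 on the other saline arrays. The mean level of 8 smooth muscle markers was 3.80 to 4.28 on the doxycycline arrays, against 3.63 to 4.91 on the saline arrays, lowest on saline 2 and highest on saline 4. Saline 2 thus stood apart from its group in B cell markers. Saline 4 had the fewest members well above background. The members called below and Wnt3 are therefore also given without saline 2 and 4.

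Between 31 and 35 of the 47 members were well above background on a doxycycline array, and between 21 and 27 on a saline array. Of the 47, 21 were well above background on all 8 arrays and 9 on 4 to 7 of them. These 30 genes were tested, among 21349 genes in all. Another 7 members were well above background on 1 to 3 arrays and 10 on none. The tested members were 8 of 19 Wnt ligands, 9 of 10 Frizzled receptors, both co-receptors, both secretion genes, Rspo1 and Rspo3 among the R-spondins, and 7 of 10 genes of the inhibitor families. The receptors were thus mostly measurable, and 11 of 19 ligands were not. Since the saline arrays detected fewer of all probes, members seen with doxycycline alone are not counted as gained.

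**Figure D1:**
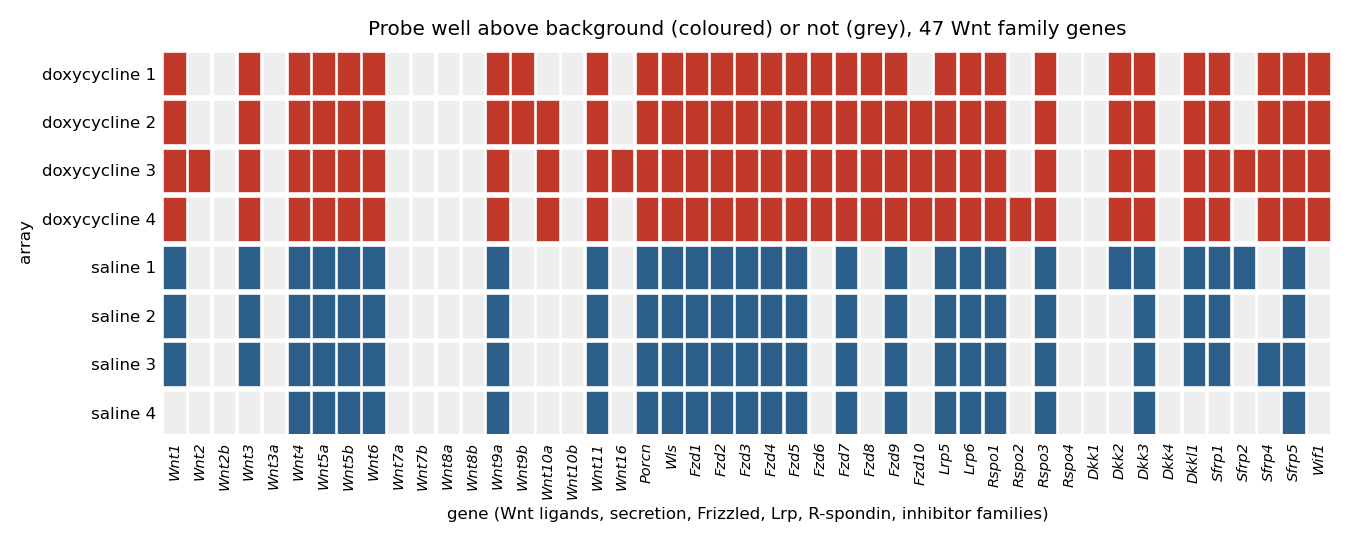
Detection of the 47 Wnt family genes. Columns are genes ordered by role, rows are the 4 doxycycline arrays (red, above) and the 4 saline arrays (blue, below), and a coloured cell marks a probe well above background. Doxycycline arrays show 31 to 35 coloured cells and saline arrays 21 to 27.

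Between the doxycycline and saline arrays, 4 of the 30 tested members were called different (limma adjusted p under 0.05 over all genes tested). Sfrp1, a secreted Wnt-binding inhibitor, was called higher, and the ligand Wnt6 and the receptors Fzd2 and Fzd9 were called lower. The other 26 did not pass. Fzd2 and Fzd9 each lost the call in 6 of the fits that left out 1 array. Wnt6 lost it with all arrays raised to a common floor, and all 4 lost it with the arrays blocked by replicate number. The 4 calls make 13.3% of the tested members, beside 13.9% of all genes tested, so the share of family genes that changed was near that of the array as a whole. In the single directions, 5.95% of all genes tested rose and 7.91% fell. At an unadjusted p under 0.05 there were 7 members. The median log2 difference of the members was 0.11, against 0.015 over all genes tested, with a range from -1.38 for Wnt3 to 1.12 for Sfrp1. The values of the 2 groups did not overlap for 6 of the 30 members, beside 21.9% of all genes tested. For 13 of the 26 members not called, the 95% interval of the difference lay within a 2-fold change in either direction, so a larger change was outside the interval for these. In bulk tissue, fewer cells of a type and less RNA per cell cannot be told apart for any of these genes.

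**Figure D2:**
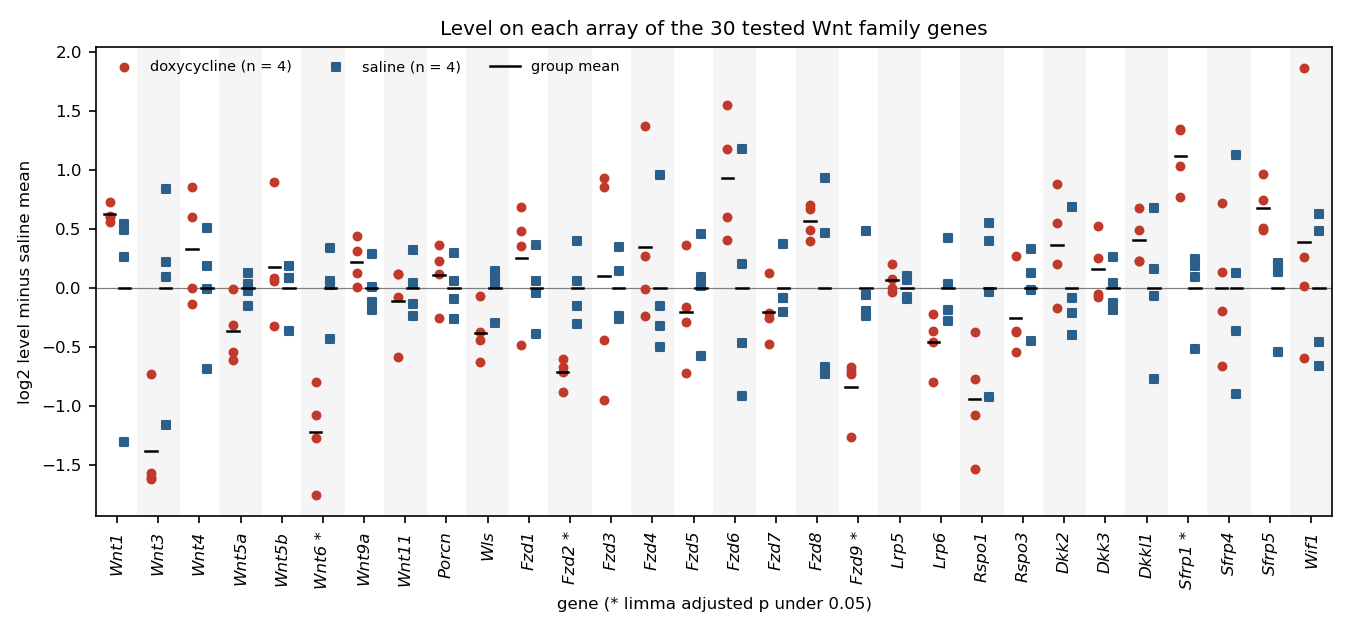
Level of each tested Wnt family gene on each array. The y axis is the log2 level minus the gene's saline mean, circles are the 4 doxycycline arrays, squares the 4 saline arrays, bars the group means, and a star marks an adjusted p under 0.05. Sfrp1 lies wholly above its saline values, and Wnt6, Fzd2 and Fzd9 wholly below theirs.

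**Figure D3:**
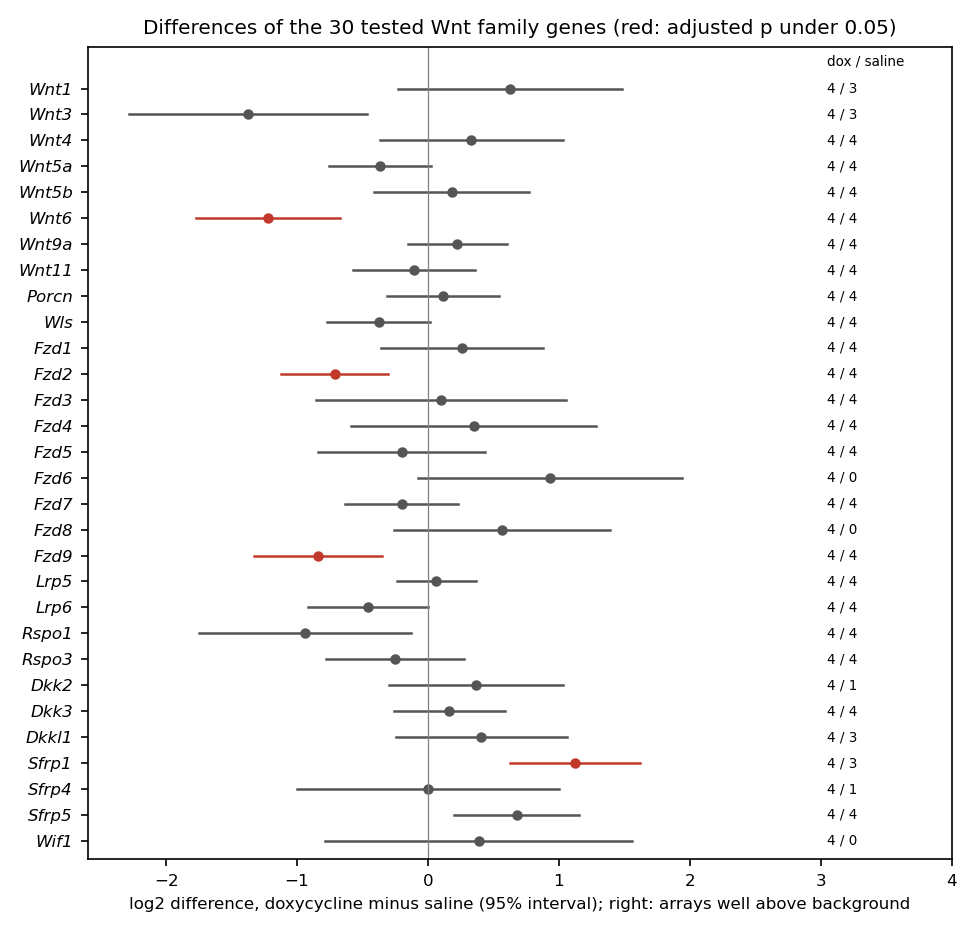
Log2 differences, doxycycline minus saline, of the 30 tested Wnt family genes with limma's 95% intervals. Red marks an adjusted p under 0.05, and the figures on the right count the doxycycline and saline arrays on which the probe was well above background. Sfrp1 is the called rise, at 1.12, and Wnt6, Fzd2 and Fzd9 are the called falls, at -1.22, -0.71 and -0.84.

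Among the ligands, Wnt6 was called lower. Wnt6, which crypt epithelium of the mouse gut expresses, was read by a probe on chromosome 1 at 74831461 to 74831520 (mm9). Its levels were -3.27, -3.56, -4.23 and -3.75 on the doxycycline arrays, against -2.91, -2.42, -2.45 and -2.14 on the saline arrays. All doxycycline values lay below all saline values. The difference was -1.22 (SE 0.243), or 2.33-fold lower (95% interval 1.59 to 3.41, adjusted p = 0.0138). The probe was well above background on all 8 arrays, but its doxycycline levels lay below the lowest signal that counted as well above background on any saline array, which was -3.07 to -2.57. With all arrays raised to a common floor at the highest of these limits the difference shrank to -0.18 (adjusted p = 0.252), with normexp background it was -0.78 (adjusted p = 0.00637), and without saline 2 and 4 it was -1.02 (adjusted p = 0.0758).

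Wnt3, the ligand that Paneth cells supply to crypt stem cells, had the lowest difference of all tested members and did not pass the threshold. Its probe (chromosome 11, 103679038 to 103679097, mm9) read -3.56, -2.69, -3.53 and -3.58 with doxycycline and -1.13, -1.87, -1.74 and -3.12 with saline. Doxycycline 2 stood above the other doxycycline arrays, and saline 4, where the probe was not well above background, lay among the doxycycline values, so the groups overlapped. The difference was -1.38 (SE 0.403, adjusted p = 0.0533). It passed without doxycycline 2 (-1.59, adjusted p = 0.0484), without saline 4 (-1.76, adjusted p = 0.00918), without saline 2 and 4 (-1.90, adjusted p = 0.0208), with normexp background (-0.90, adjusted p = 0.00587) and with array weights (-1.77, adjusted p = 0.00522). With the common floor it was -0.74 (adjusted p = 0.143). In the other 6 fits that left out 1 array it did not pass (adjusted p up to 0.129). The mean doxycycline level of the probe, -3.34, lay below the lowest signal that counted as well above background on any saline array, -3.07 to -2.57. Paneth cell markers, measured for 6 of 8 genes listed, had 0 calls by limma (0 at an unadjusted p under 0.05) and mean levels of 6.25 to 6.52 on doxycycline arrays and 6.45 to 6.69 on saline arrays.

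Wnt1, the founding member of the family, had doxycycline levels of -0.92, -1.04, -1.09 and -1.04, against -1.38, -1.11, -1.16 and -2.95 with saline. The groups did not overlap, but 3 saline arrays came close to the doxycycline values and saline 4, where the probe was not well above background, lay far below. The difference of 0.63 (SE 0.379) did not pass (adjusted p = 0.294), and without saline 4 it was 0.19. A second Wnt1 probe lies upstream of it on chromosome 15 and was not well above background on any array. It is shown because it disagrees with the probe used; capitals mark the stop codon that ends its open reading frame (chr15:98623276-98623335, mm9, plus strand).
Wnt1 second probe: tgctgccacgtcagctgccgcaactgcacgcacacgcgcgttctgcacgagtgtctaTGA
Its levels were -6.89 to -6.10 with doxycycline and -5.18 to -4.65 with saline, so the 2 Wnt1 probes did not give the same picture and the detection of Wnt1 rests on 1 of them.

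The other tested ligands showed no called change. Wnt5a, a ligand of beta-catenin-independent signalling made by gut mesenchyme, averaged -0.19 ± 0.27 with doxycycline and 0.18 ± 0.12 with saline (difference -0.37, SE 0.171, adjusted p = 0.181). Wnt4 differed by 0.33 (SE 0.308), Wnt9a by 0.23 (SE 0.168), Wnt5b by 0.18 (SE 0.263) and Wnt11, a ligand of convergent extension in embryos, by -0.11 (SE 0.207). Wnt5a, Wnt5b, Wnt9a and Wnt11 are among the members whose interval stayed within a 2-fold change. Wnt4 has a second, dimmer probe, well above background on 4 doxycycline arrays and 0 saline arrays. Its doxycycline mean of -3.93 lay below the saline detection limit, so no difference is given for it.

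The 11 ligands that were not tested fell into 2 sets. Wnt2b, Wnt3a, Wnt7a, Wnt7b, Wnt8a, Wnt8b and Wnt10b were not well above background on any array. Wnt10a was well above background on 3 doxycycline arrays and 0 saline arrays, Wnt9b on 2 and 0, and Wnt2 and Wnt16 on 1 and 0 each. Wnt10a read -4.50, -3.92, -3.69 and -3.22 with doxycycline and -3.27, -2.91, -3.86 and -4.66 with saline. Wnt9b, expressed by gut crypt epithelium in mice, read -4.36, -4.50, -5.40 and -5.86 with doxycycline and -5.08, -3.97, -5.12 and -4.38 with saline. In both genes the saline levels overlapped the doxycycline levels in spite of the difference in detection, and neither was tested. Wnt2 read -6.68, -5.50, -4.58 and -6.75 with doxycycline and -5.25, -4.73, -4.84 and -4.75 with saline. Wnt16 read -4.83, -6.08, -3.80 and -6.19 with doxycycline and -5.33, -4.80, -5.27 and -4.77 with saline. For both, a single doxycycline array, replicate 3, was well above background.

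Several Wnt ligand genes lie side by side in the genome, and 4 such neighbour pairs are in the set, each with 0 protein-coding genes between its members in the RefSeq gene table. By probe position (mm9), Wnt10a and Wnt6 lie 19.1 kb apart on chromosome 1, Wnt1 and Wnt10b 21.9 kb apart on chromosome 15, Wnt3a and Wnt9a 85.3 kb and Wnt3 and Wnt9b 90.1 kb apart on chromosome 11. In each of the 4 pairs exactly 1 gene passed the filter for testing: Wnt6, Wnt1, Wnt9a and Wnt3. In no pair did both genes pass it. Of all 19 ligands 8 passed the filter, which asks for 4 arrays. Wnt10a and Wnt9b fell short of it at 3 and 2 arrays. Whether neighbour pairs differ from other pairs of ligands was not tested.

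Of the secretion genes, neither changed. Porcn, the acyltransferase that lipid-modifies Wnt proteins, averaged -0.46 ± 0.27 with doxycycline and -0.58 ± 0.23 with saline (difference 0.12, SE 0.189, adjusted p = 0.716). Wls, the carrier that brings them to the cell surface, averaged 1.60 ± 0.23 with doxycycline and 1.97 ± 0.20 with saline (difference -0.38, SE 0.175, adjusted p = 0.177). Both intervals lay within a 2-fold change.

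Among the receptors, Fzd2 and Fzd9 were called lower. Fzd2, a receptor that can bind Wnt5a, was read by a probe on chromosome 11 at 102467613 to 102467672 (mm9). Its levels were -0.52, -0.48, -0.69 and -0.41 with doxycycline, against 0.58, 0.03, 0.25 and -0.12 with saline. The groups did not overlap, and saline 4 came closest to the doxycycline arrays. The difference was -0.71 (SE 0.180), or 1.64-fold lower (95% interval 1.24 to 2.17, adjusted p = 0.0327). The call was near the threshold. It was lost when any single doxycycline array, saline 1 or saline 3 was left out (adjusted p up to 0.0946), and kept without saline 2 or saline 4. Without both it was -0.94 (adjusted p = 0.0264). It was also lost with the percentile taken over probes detected on all arrays (-0.64, adjusted p = 0.0511).

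The Fzd2 probe resembles a probe of another family member more than any other pair of the 55 probes. In an alignment without gaps it shares 42 of 50 overlapping bases (84.0%) with the second probe of Fzd7, and the next pair of different genes shares 58.1% of its overlap. The 2 are shown with the shared bases in capitals (Fzd2 at chr11:102467613-102467672 and Fzd7 at chr1:59541367-59541426, mm9, plus strand), because the call of Fzd2 rests on this probe.
Fzd2 probe used: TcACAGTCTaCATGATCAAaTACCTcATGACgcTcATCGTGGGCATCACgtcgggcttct
Fzd7 second probe: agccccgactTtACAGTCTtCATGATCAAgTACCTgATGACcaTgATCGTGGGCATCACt
The Fzd7 second probe was well above background on 1 doxycycline array and 0 saline arrays, with levels of -5.52 to -4.58 with doxycycline and -5.02 to -4.66 with saline. The main Fzd7 probe was well above background on all 8 arrays and differed by -0.20 (SE 0.190, adjusted p = 0.51). The second Fzd2 probe, further downstream, was well above background on 2 doxycycline arrays and 1 saline array and was not tested; it read -3.78, -3.94, -5.96 and -4.87 with doxycycline and -2.38, -3.61, -3.53 and -3.25 with saline. Whether the probes bind transcripts of the other gene was not tested.

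Fzd9, a receptor studied mainly in bone and blood cells, was read by a probe on chromosome 5 at 135724815 to 135724874 (mm9). Its levels were -0.59, -0.63, -0.66 and -1.19 with doxycycline, against 0.56, -0.12, -0.16 and 0.01 with saline. The groups did not overlap, doxycycline 4 was the lowest array and saline 1 the highest. The difference was -0.84 (SE 0.216), or 1.79-fold lower (95% interval 1.27 to 2.51, adjusted p = 0.0347). The call was kept without doxycycline 1 and without saline 2, and lost without each of the other 6 arrays (adjusted p up to 0.0865). Without saline 2 and 4 together the difference was -0.96 (adjusted p = 0.0747).

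Fzd6 and Fzd8 were well above background on all 4 doxycycline arrays and on 0 saline arrays. Fzd6, a receptor of planar cell polarity, read -3.63, -3.82, -3.05 and -2.68 with doxycycline and -3.05, -4.03, -5.14 and -4.69 with saline. Fzd8 read -3.13, -3.32, -3.41 and -3.10 with doxycycline and -3.34, -4.48, -2.87 and -4.54 with saline. In both genes the groups overlapped. The mean doxycycline levels, -3.29 for Fzd6 and -3.24 for Fzd8, lay below the detection limits of all saline arrays, -3.07 to -2.57. No fold is therefore given. Neither passed the threshold (adjusted p = 0.189 for Fzd6 and 0.326 for Fzd8), and with normexp background both differences turned negative.

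The remaining tested receptors did not pass. Fzd5, the receptor that Paneth cells need to mature, averaged -0.26 ± 0.45 with doxycycline and -0.06 ± 0.43 with saline (difference -0.20, SE 0.281, adjusted p = 0.667). Its second probe, well above background on all 8 arrays, differed by -0.41 (SE 0.364, adjusted p = 0.483). Fzd7, a receptor of mouse intestinal stem cells, averaged -1.51 ± 0.25 with doxycycline and -1.31 ± 0.26 with saline. Fzd1 differed by 0.26 (SE 0.274), and its lowest doxycycline array, replicate 1, lay below all saline arrays. Fzd4, also the receptor of norrin, differed by 0.35 (SE 0.414), with doxycycline 3 and saline 3 highest in their groups. Fzd3, a receptor of axon guidance, differed by 0.10 (SE 0.422), with doxycycline 1 and 2 at -1.72 and -2.24 and doxycycline 3 and 4 at -0.43 and -0.35. Fzd3 had the widest spread of the 9 tested receptors within doxycycline, at an SD of 0.94. Fzd10 was well above background on 3 doxycycline arrays and 0 saline arrays and was not tested; it read -4.96, -4.41, -4.42 and -3.63 with doxycycline and -3.27, -3.54, -3.88 and -4.22 with saline, which overlapped.

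The co-receptors kept within a 2-fold interval. Lrp5 averaged 1.32 ± 0.10 with doxycycline and 1.26 ± 0.10 with saline, a difference of 0.065 (SE 0.135, adjusted p = 0.779). Lrp6 averaged 2.79 ± 0.24 with doxycycline and 3.25 ± 0.31 with saline, a difference of -0.46 (SE 0.203, adjusted p = 0.163). A second Lrp6 probe, well above background on all arrays, differed by -0.26 (SE 0.191, adjusted p = 0.387).

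No R-spondin was called by limma, and 1 had an unadjusted p under 0.05. Rspo1, which amplifies Wnt signals through Lgr receptors, read 0.70, 0.00, 0.30 and -0.46 with doxycycline and 1.47, 1.04, 0.15 and 1.62 with saline. In 3 saline arrays it lay above all doxycycline arrays, and saline 3 lay among them. The difference was -0.94 (SE 0.358, adjusted p = 0.113), and it passed in the fit without saline 3 (-1.24, adjusted p = 0.0471). Rspo3, the R-spondin that mesenchyme below the crypts supplies to stem cells in mice, averaged -0.35 ± 0.36 with doxycycline and -0.10 ± 0.33 with saline (difference -0.25, SE 0.234, adjusted p = 0.506). Rspo2 was well above background on 1 doxycycline array, replicate 4, and 0 saline arrays, and Rspo4 on none. Rspo2 read -4.34, -5.43, -5.50 and -4.61 with doxycycline and -5.12, -3.61, -4.45 and -4.70 with saline.

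The secreted inhibitor families held the 1 called rise. Sfrp1, which binds Wnt proteins through a Frizzled-like domain, was read by a probe on chromosome 8 at 24559438 to 24559497 (mm9). Its levels were -1.10, -0.53, -0.84 and -0.52 with doxycycline, against -1.63, -1.69, -1.78 and -2.39 with saline. All doxycycline values lay above all saline values, and saline 4, where the probe was not well above background, was lowest. The difference was 1.12 (SE 0.220), or 2.18-fold higher (95% interval 1.54 to 3.07, adjusted p = 0.0131). It passed in each of the 8 fits that left out 1 array (0.95 to 1.24) and without saline 2 and 4 together (0.95, adjusted p = 0.0439), and with normexp background it was 0.55 (adjusted p = 0.0212).

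Sfrp5, a close relative of Sfrp1, read -1.06, -1.07, -0.60 and -0.82 with doxycycline and -1.36, -2.11, -1.43 and -1.37 with saline. The groups did not overlap, and saline 2 stood below the other saline arrays. The difference of 0.68 (SE 0.212) did not pass (adjusted p = 0.0647). Sfrp4 was well above background on 4 doxycycline arrays and 1 saline array and did not differ in mean (0.003, SE 0.443), although its 95% interval, -0.997 to 1.004, allows a 2-fold change either way. Sfrp2 was well above background on 1 array of each group and was not tested. It read -6.03, -5.47, -4.25 and -4.93 with doxycycline and -2.87, -2.89, -3.53 and -2.64 with saline. The groups did not overlap, but neither did those of undetected members such as Dkk1, Dkk4 and Rspo4. The Dkk1 probe, for example, averaged -7.02 with doxycycline and -5.02 with saline. Among the undetected members Wnt2b and Wnt8b did overlap. All Sfrp2 doxycycline levels lay below the lowest saline detection limit, -3.07, so no fold is given and no direction is read from it.

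Wif1, which binds Wnt proteins outside the cell, was well above background on all doxycycline arrays and 0 saline arrays. It read -4.25, -3.39, -3.63 and -1.79 with doxycycline and -3.17, -3.03, -4.31 and -4.11 with saline. Doxycycline 4 stood highest, the groups overlapped, and it did not pass (adjusted p = 0.648). The doxycycline mean of -3.27 lay below the detection limits of all saline arrays, -3.07 to -2.57, so no fold is given. Of the Dickkopf genes, which block Lrp co-receptors, Dkk2 differed by 0.37 (SE 0.294, adjusted p = 0.434), and Dkk1 and Dkk4 were not well above background on any array. Dkk3, a divergent member of that family, averaged 2.42 ± 0.28 with doxycycline and 2.25 ± 0.20 with saline (difference 0.16, SE 0.187, adjusted p = 0.591). Dkkl1, a relative known from mouse sperm, differed by 0.41 (SE 0.288, adjusted p = 0.372). The 7 tested members of these families had positive differences, from 0.003 to 1.12, with Sfrp4 and Wif1 turning negative in some settings. However, 5 of the 7 were well above background on 4 doxycycline and fewer saline arrays. The saline arrays were 3 for Sfrp1 and Dkkl1, 1 for Dkk2 and Sfrp4, and 0 for Wif1. The part of the detection filter in the shared direction was not tested.

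Sfrp1 and the R-spondins are made largely by stromal cells, so stromal markers were set beside them. The counts below stand beside 5.95% of all genes tested that rose and 7.91% that fell. Of 13 fibroblast and subepithelial markers tested, 1 rose, Pdgfra (2.36-fold, adjusted p = 0.0182), and 0 fell. The median difference of the 13 was 0.055, and 11 were well above background on all arrays. Their mean level was 1.85 to 2.64 on doxycycline arrays and 1.93 to 2.43 on saline arrays. Of 8 smooth muscle markers 0 rose and 1 fell, Synm (1.72-fold, adjusted p = 0.0473), with mean levels of 3.80 to 4.28 on doxycycline and 3.63 to 4.91 on saline arrays. Of 5 tested endothelial markers 1 rose, Lyve1, and the mean level was 0.98 to 1.15 with doxycycline and 0.22 to 0.73 with saline. Of 6 macrophage markers 2 rose, C1qb and Mrc1, and 1 fell, Adgre1, with a median difference of 0.96 and mean levels of 1.61 to 2.23 with doxycycline and 0.66 to 1.62 with saline. Of 4 tested neutrophil markers 2 were called higher, S100a8 and S100a9, and the median difference was 1.70. Mean levels were 0.16 to 1.94 with doxycycline and -1.26 to 0.68 with saline. For both called genes the groups overlapped. S100a8 was well above background on 4 doxycycline and 0 saline arrays, so its call is not counted here as a rise. The part of stromal, endothelial or immune cells in the differences of the members was not tested.

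Other genes of the pathway were taken from lists drawn with earlier results of these data known. The count of each list stands beside 5.95% of all genes tested that rose and 7.91% that fell. Of 4 tested genes for Frizzled turnover and R-spondin reception, 2 fell and 0 rose. Lgr5, the R-spondin receptor that marks crypt stem cells, was 2.84-fold lower (95% interval 2.14 to 3.75, adjusted p = 0.00139), and its relative Lgr4 was 1.56-fold lower (adjusted p = 0.0465); leaving out any single array ended the Lgr4 call (adjusted p up to 0.101). Rnf43, a ligase that removes Frizzled, differed by -0.40 (adjusted p = 0.0915), and Znrf3, its partner, was well above background on 4 doxycycline and 0 saline arrays and did not pass (adjusted p = 0.241). Its doxycycline mean lay below the saline detection limit, so no fold is given.

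Of 11 tested further extracellular regulators, 2 were called higher and 1 lower, and 1 of the higher calls, Frzb, passed the detection filter only through the doxycycline arrays. Igfbp4, which can bind Lrp6 and Fzd8, was 1.55-fold higher (adjusted p = 0.0262). Its call was kept without doxycycline 1 and without saline 4 and lost without each of the other 6 arrays (adjusted p up to 0.0798) and without saline 2 and 4 together (adjusted p = 0.0915). Frzb, a relative of the Sfrp genes, was called higher (adjusted p = 0.00547) with levels of -3.84, -2.62, -2.91 and -3.02 with doxycycline and -4.48, -4.67, -4.78 and -4.75 with saline. It was well above background on 0 saline arrays and its doxycycline mean lay below the saline detection limit, so no fold is given. With the common floor its difference was 0, with normexp background it was 0.27 (adjusted p = 0.171), and the call is not counted here as a rise. Tspan12, a partner of Fzd4 in norrin signalling, was 1.84-fold lower (adjusted p = 0.0456). Its call was kept without saline 2 and lost without each of the other 7 arrays (adjusted p up to 0.116), without saline 2 and 4 together (adjusted p = 0.082) and with the common floor (adjusted p = 0.0678). Sostdc1, a secreted Wnt and BMP antagonist, was well above background on 4 doxycycline and 0 saline arrays and did not pass (adjusted p = 0.161).

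Of 13 tested alternative receptors and planar polarity genes, 1 was called higher and 0 lower, and the 1 call, Musk, passed the detection filter only through the doxycycline arrays. Musk, a receptor kinase of the neuromuscular junction with a Frizzled-like domain, was well above background on 4 doxycycline and 0 saline arrays (adjusted p = 0.0288). Its levels were -2.84, -2.08, -2.56 and -2.32 with doxycycline and -3.32, -2.96, -3.88 and -3.83 with saline. The groups did not overlap, but with the common floor the difference was 0.19 (adjusted p = 0.333) and with normexp background 0.30 (adjusted p = 0.12), and the call was lost without each of 6 single arrays, so it is not counted here as a rise. Celsr1, Celsr3 and Ryk, the next 3 by p, differed by -0.61, 1.01 and -0.28 and did not pass. Of 28 tested intracellular genes of the beta-catenin route, 0 rose and 1 fell, the kinase Csnk1d (1.54-fold lower, adjusted p = 0.0398). Its call was lost without each of 6 single arrays (adjusted p up to 0.112) and without saline 2 and 4 together (adjusted p = 0.0772). With its kept probes averaged, Csnk1d turned to 0.12 (adjusted p = 0.57). Its relative Csnk1e differed by 0.60 (adjusted p = 0.0554) and the beta-catenin inhibitor Ctnnbip1 by -0.50 (adjusted p = 0.071). The median difference of the 28 was -0.19, against 0.015 over all genes tested, and beta-catenin itself, Ctnnb1, differed by -0.39 (adjusted p = 0.107).

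Of 20 tested Wnt target genes known from the intestine, 4 fell and 0 rose. That is 4 of 20, beside 13.9% of all genes tested called in either direction and 7.91% called lower. Ascl2, a transcription factor of crypt stem cells, was 5.27-fold lower (95% interval 3.23 to 8.60, adjusted p = 0.00212). Axin2, a negative feedback target of beta-catenin, was 2.99-fold lower (95% interval 2.06 to 4.35, adjusted p = 0.00425). Sox9, a factor of crypt progenitors and Paneth cells, read -0.49, -0.01, -0.90 and -0.70 with doxycycline and 0.70, 0.56, 0.81 and 0.97 with saline, without overlap, and was 2.43-fold lower (95% interval 1.75 to 3.39, adjusted p = 0.00623). Lgr5 is the fourth. These 4 calls held in each fit that left out 1 array. Lgr5, Ascl2 and Axin2 were known to be lower when the list was drawn, so the count is not independent evidence of its direction. The median difference of the 20 was -0.37, and 16 were negative.

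**Figure D4:**
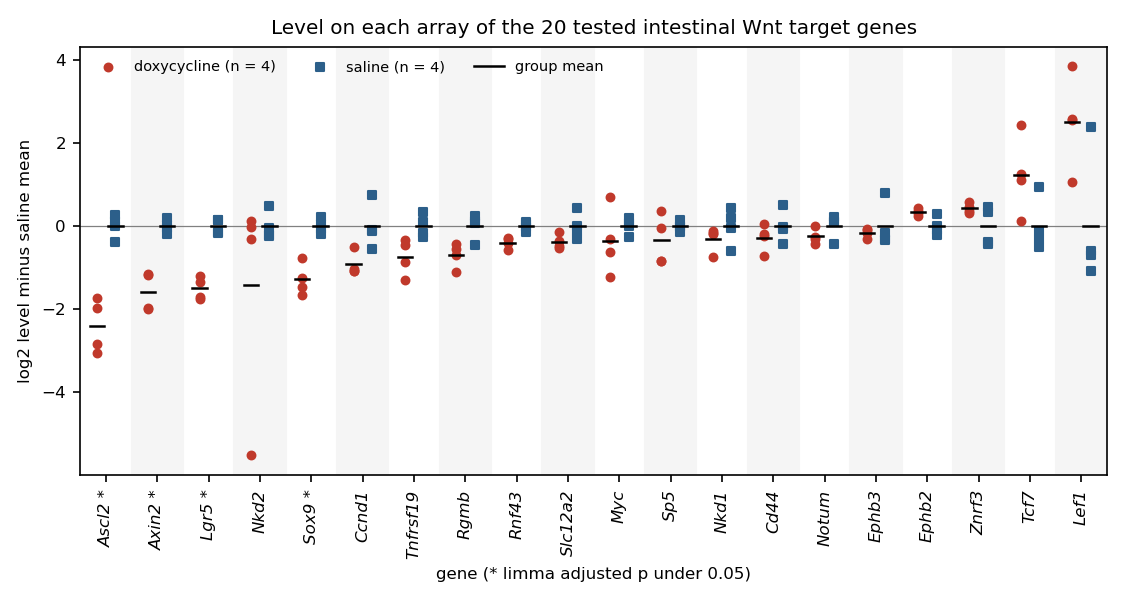
Level of 20 tested intestinal Wnt target genes on each array. The y axis is the log2 level minus the gene's saline mean, circles are the 4 doxycycline arrays, squares the 4 saline arrays, bars the group means, and a star marks an adjusted p under 0.05. Ascl2, Axin2, Lgr5 and Sox9 lie wholly below their saline values, and Lef1 has 1 saline array, replicate 2, among the doxycycline values.

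Lef1 and Tcf7, TCF/LEF factors that lymphocytes also express, had the highest differences of the target list and did not pass. Lef1 differed by 2.51 (SE 0.814, adjusted p = 0.072), with -1.18, 0.30, 0.34 and 1.60 on the doxycycline arrays and -2.95, 0.14, -2.84 and -3.34 on the saline arrays. Saline 2, the high saline array, is also the one with the highest B cell marker level, and doxycycline 1, the low doxycycline array, has the lowest B cell marker level of its group, 0.95. Lef1 passed without saline 2 (3.31, adjusted p = 0.00936) and without doxycycline 1 (2.99, adjusted p = 0.0478). The 6 tested B cell markers had a median difference of 1.78 with 0 calls by limma (2 at an unadjusted p under 0.05). The 5 tested T cell markers had a median difference of 0.031 with 0 calls (0 at an unadjusted p under 0.05), and mean levels of 1.32 to 1.86 with doxycycline and 0.74 to 2.07 with saline, highest on saline 2. The part of lymphocytes in these values was not tested.

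Promoter sequences, the 250 bases before each gene's start, were available from RefSeq (GRCm38.p6) for 30 of the 47 members, with 33 promoters in all. The member promoters were rich in G and C, with a median of 66.8% against 52.4% over all 32851 promoters and a median of 22 CpG pairs against 6. Tested and untested members had median GC contents of 66.8% and 68.2%. Wnt6 and Fzd9, both called lower, are shown with CpG in capitals (Wnt6 at chr1:74771642-74771891, plus strand; Fzd9 at chr5:135251048-135251297, minus strand).
Wnt6 promoter: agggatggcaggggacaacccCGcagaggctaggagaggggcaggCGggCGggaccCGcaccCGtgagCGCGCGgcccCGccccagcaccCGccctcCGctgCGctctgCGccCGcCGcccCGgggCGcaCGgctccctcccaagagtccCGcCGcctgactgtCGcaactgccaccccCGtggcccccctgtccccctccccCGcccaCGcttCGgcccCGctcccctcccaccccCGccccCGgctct
Fzd9 promoter: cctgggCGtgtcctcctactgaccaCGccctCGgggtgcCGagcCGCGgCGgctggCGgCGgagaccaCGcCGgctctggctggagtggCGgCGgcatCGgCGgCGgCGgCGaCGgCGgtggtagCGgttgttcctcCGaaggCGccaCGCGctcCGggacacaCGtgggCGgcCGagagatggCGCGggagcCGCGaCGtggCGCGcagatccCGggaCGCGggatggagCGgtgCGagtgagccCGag
Wnt6 holds 28 CpG pairs at 79.6% GC and Fzd9 holds 42 at 76.4% GC. The TCF/LEF motif CTTTGAT, searched on both strands, was found in 3.21% of all promoters and in 2 of the 33 member promoters, those of Wnt5b and Wnt11. The related motif CTTTGAA, which differs in its last letter and so never counts at the same place, was found in 4.46% of all promoters and in 1 member promoter, that of Dkk1. The STAT motif TTCNNNGAA was found in 7.02% of all promoters and in 1 member promoter, that of Wnt5b. The promoters of Wnt6 and Fzd9 held 0 matches to these 3 motifs, which says only that these letters are not in these windows.

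**Figure D5:**
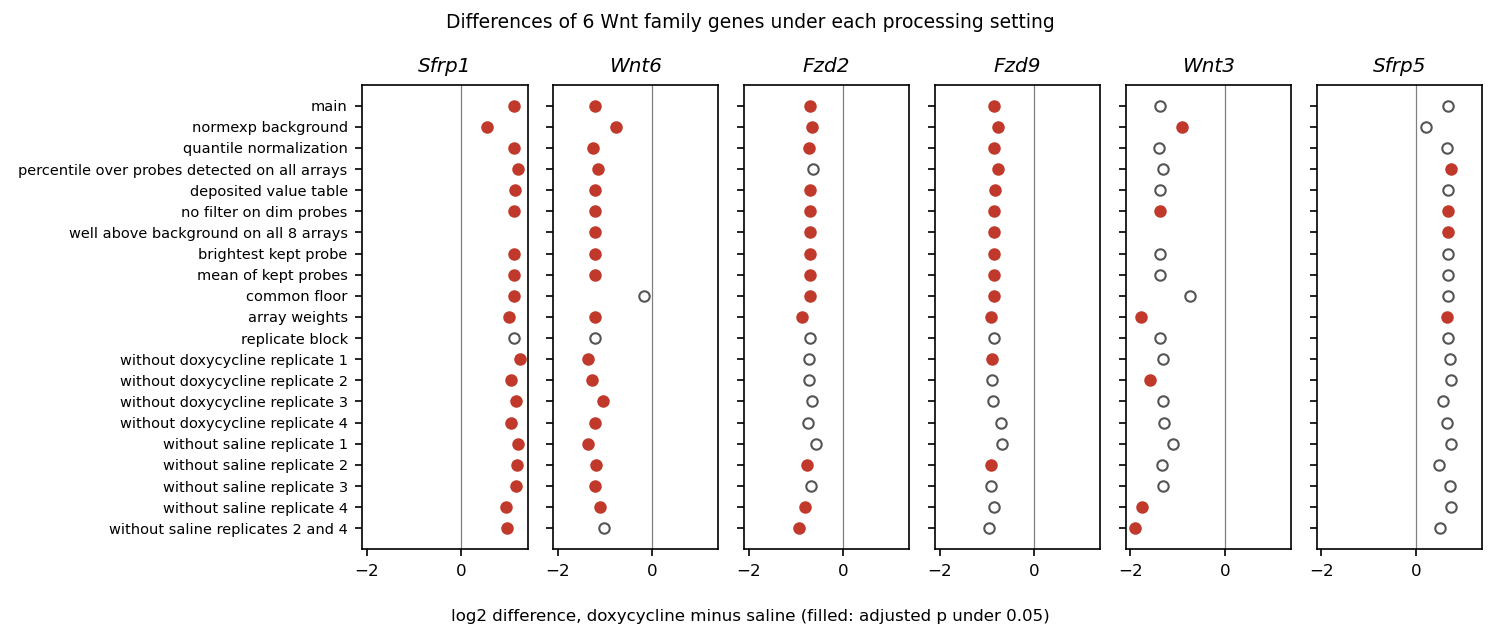
Differences of Sfrp1, Wnt6, Fzd2, Fzd9, Wnt3 and Sfrp5 under each processing setting. The x axis is the log2 difference, doxycycline minus saline, rows are settings, and filled circles have an adjusted p under 0.05. Each gene keeps its sign in every setting shown, Wnt6 comes near 0 with the common floor (-0.18), and Fzd2 and Fzd9 lose their call in most fits that leave out 1 array.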

How the data were processed

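Gene expression was measured on 1-colour Agilent arrays, 1 array per sample, 4 with doxycycline and 4 with saline, grouped by the treatment label. The submitters' processing notes name Agilent Feature Extraction 10.7.3.1 for spot intensity. The processed intensity that the authors deposited has, per the file headers, the background subtracted, and spots within the noise carry a substitute value. A deposited table of log2 values equals the log2 processed intensity minus 1 constant per array and served as an alternative.

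From the scanner values, control spots and outlier spots were dropped, spots of a probe averaged, and the 75th percentile of each array subtracted on the log2 scale. Genes whose probe was well above background on at least 4 arrays (21349) entered limma 3.58.1 in R 4.3.3 (lmFit, eBayes, two-sided, Benjamini-Hochberg over all of them, adjusted p under 0.05, 95% intervals); the number of arrays limits the precision. The code was tested on simulated data. Probe positions are mm9, from the files, and were not placed on exons or untranslated regions. Promoters are from RefSeq (GRCm38.p6), where all 47 member names were found.

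Members and lists were chosen with earlier results of these data known. Array values are printed for tested members past the threshold or without overlap and for members detected in 1 group only. Up to 4 genes of smallest p are named per pathway list. Array values outside these rules are given for Wnt3, Rspo1, Sfrp2, Fzd3, the second Fzd2 probe, Lef1, Sox9, Frzb and Musk. At least those of Wnt3, Rspo1 and Lef1 were chosen after they were seen. Deviations of same-numbered arrays, which also share a slide column, had correlations of -0.042 to 0.11, and arrays of other numbers -0.25 to 0.22. With 4 arrays per group these values cannot show whether the samples were paired. The main fit treated the arrays as unpaired.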

Additional observations from a re-analysis of the deposited data

Results flagged for a closer look

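In 4 of 60 groups of 4 arrays examined for the tested members, 1 array lay far from the other 3, with a gap to the nearest array that exceeds Dixon's 95% critical share of the group's range. Chance gives such a gap in about 1 in 20 groups. Fzd9 read -1.19 on doxycycline 4, against -0.66 to -0.59 on the other doxycycline arrays. Wnt3 read -2.69 on doxycycline 2, against -3.58 to -3.53 on the other doxycycline arrays. Sfrp5 read -2.11 on saline 2, against -1.43 to -1.36 on the other saline arrays. Wnt1 read -2.95 on saline 4, against -1.38 to -1.11 on the other saline arrays. The 4 flags fall on 4 different arrays, and their cause was not tested.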

How the results depend on the processing

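Over 20 alternative settings, the count of family members that rose was 1 except for 2 with array weights, with no filter on dim probes and with the percentile over probes detected on all arrays, where Sfrp5 joined Sfrp1, and 0 with the replicate block; with detection required on all 8 arrays the 1 was Sfrp5, since Sfrp1 was not tested. The count that fell was 1 to 3 when 1 array was left out (1 without doxycycline 3, doxycycline 4 or saline 1, with Wnt3 joining without doxycycline 2 or saline 4 and Rspo1 without saline 3), 4 with normexp background and with array weights, where Wnt3 joined, 14 with no filter, where 9 of the added genes were not well above background on any array, and 0 with the replicate block. The replicate block moved all 4 family calls to an adjusted p above 0.05 (Sfrp1 adjusted p = 0.051, Wnt6 0.0509, Fzd2 0.0825, Fzd9 0.0615). Same-numbered arrays also share a column of the slide, so the block is a block of slide column too. Their deviations had correlations of 0.0057, -0.042, 0.11 and 0.012, which do not settle whether the samples were paired. Over all genes tested the block left 787 higher and 906 lower calls, and array weights gave 2881 and 3369; with no filter the median difference of all genes moved to -0.33, with 1850 higher and 11809 lower. Target genes called lower were 9 with no filter and 8 with array weights; called higher, they were 1 with no filter, 2 with array weights, 1 without saline 2 and 4 (Lef1 each time, with Tcf7 under the weights), and 0 to 2 when 1 array was left out. Differences that changed sign belonged to genes not called, except Csnk1d (0.12 with its probes averaged). With normexp background these were Fzd6 (-0.26), Fzd8 (-0.33), Sfrp4 (-0.44) and Znrf3 (-0.011); with array weights Sfrp4 (-0.42); without saline 2 and 4, Fzd4 (-0.059), Fzd8 (-0.13), Sfrp4 (-0.38) and Wnt4 (-0.014). When 1 array was left out, Fzd3 ranged from -0.18 to 0.45, Sfrp4 from -0.29 to 0.38, Wif1 from -0.10 to 0.71, Wnt11 from -0.18 to 0.053 and Wnt5b from -0.058 to 0.35. The cause of these changes was not tested. The higher noise level of the saline arrays limits what can be said of members near background, Wnt6, Wnt3, Fzd6, Fzd8 and Wif1 among them.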
